A study of Homo sapiens with 4 samples.

Results

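The genes described here are 10 receptor tyrosine kinase genes, EGFR, ERBB2, ERBB3, MET, FGFR1, FGFR2, FGFR4, IGF1R, INSR and PDGFRA, out of 20136 protein-coding genes in the annotation. They were chosen by name, and every peak that overlapped the hg19 span of one of them, or the 50 kb on either side, was taken from 3 ChIP-seq peak lists of LNCaP, an established line of human prostate cancer cells that respond to androgens. ChIP-seq recovers the DNA held by a chosen protein or histone mark, and a peak is a stretch where the recovered sequence tags pile up. The first library was made for H3K27Ac, an acetyl mark on histone H3 found at active enhancers and promoters, from cells at passage 20 kept in charcoal-stripped serum, which has lost most of its steroids, and given 10 nM dihydrotestosterone (DHT), a potent androgen, for 4 h. The second was also made for H3K27Ac, from cells of the same passage in the same kind of serum given ethanol vehicle. The third was made for TCF7L2, a transcription factor of the Wnt pathway, from cells at passage 15 in serum that had not been stripped, so hormone, serum and passage all differ between it and the H3K27Ac libraries. Only 1 library was made per condition, so how much cultures vary is unknown and no test was possible, and the input control was not analysed here.

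A receptor tyrosine kinase typically binds a growth factor outside the cell and acts in a pair of receptors. The pair phosphorylates tyrosines on itself and on adaptor proteins, which then engage the RAS-MAPK and PI3K-AKT pathways. In prostate cancer these pathways are studied for their cross-talk with the androgen receptor, a hormone-activated transcription factor that binds DNA at androgen response elements, often beside the forkhead protein FOXA1. TCF7L2 binds short elements that begin with CTTTG, and the AP-1 factors, which act downstream of growth factor signaling, bind TGANTCA, where N is most often G or C.

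The 6 stretches of reference sequence printed here lie under peaks named in the results. All are the plus strand of GRCh37/hg19 from 5′ to 3′. The first, chr15:99332462-99332522 in intron 2 of IGF1R, lies under the tallest DHT peak of the 10 genes, and its capitals mark the 15 bp match to the androgen response element. The other stretches are the central 200 bp of TCF7L2 peaks, in which capitals mark each copy, on either strand, of the TCF7L2 element (CTTTGNN, with A or T at each N) and of the AP-1 element (TGANTCA, with any base at N, which reads alike on both strands and overlaps none of the TCF7L2 forms here). They are chr15:99343700-99343899 in intron 2 of IGF1R, chr7:116410865-116411064 in intron 12 and chr7:116416730-116416929 in intron 15 of MET, chr7:55177130-55177329 in intron 1 of EGFR, and chr10:123313445-123313644 in intron 4 of FGFR2. These centers are not typical of the TCF7L2 peaks. The tallest peaks of EGFR (158 tags), IGF1R (85) and FGFR2 (46) had no TCF7L2 element in their centers and are not printed. That element was in the centers of 43.9% of the 66 TCF7L2 peaks around the genes.
IGF1R androgen response element: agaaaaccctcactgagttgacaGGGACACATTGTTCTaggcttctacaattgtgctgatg
IGF1R TCF7L2 peak of 60 tags: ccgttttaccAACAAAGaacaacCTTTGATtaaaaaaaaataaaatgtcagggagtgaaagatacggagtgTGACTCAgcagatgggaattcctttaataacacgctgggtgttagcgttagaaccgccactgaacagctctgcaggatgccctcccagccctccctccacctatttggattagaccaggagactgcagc
MET TCF7L2 peak of 159 tags: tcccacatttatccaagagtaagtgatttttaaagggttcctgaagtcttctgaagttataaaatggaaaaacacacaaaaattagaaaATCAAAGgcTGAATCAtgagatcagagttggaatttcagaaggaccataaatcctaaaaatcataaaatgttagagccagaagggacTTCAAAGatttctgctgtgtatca
MET TCF7L2 peak of 194 tags: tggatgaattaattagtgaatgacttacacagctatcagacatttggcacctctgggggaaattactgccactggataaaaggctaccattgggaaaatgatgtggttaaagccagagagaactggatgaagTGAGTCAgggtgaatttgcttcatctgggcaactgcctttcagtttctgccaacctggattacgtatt
EGFR TCF7L2 peak of 117 tags: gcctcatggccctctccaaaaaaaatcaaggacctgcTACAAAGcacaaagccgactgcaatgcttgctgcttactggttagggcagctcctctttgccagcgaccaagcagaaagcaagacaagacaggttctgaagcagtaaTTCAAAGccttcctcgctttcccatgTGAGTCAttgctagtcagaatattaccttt
FGFR2 TCF7L2 peak of 42 tags: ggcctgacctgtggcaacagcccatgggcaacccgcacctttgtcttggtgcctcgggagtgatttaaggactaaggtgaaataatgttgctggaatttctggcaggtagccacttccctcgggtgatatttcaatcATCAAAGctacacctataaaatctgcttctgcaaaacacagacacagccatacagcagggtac

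The DHT list held 60752 peaks of 10 to 213 tags, the vehicle list 57623 peaks of 9 to 212 tags, and the TCF7L2 list 20955 peaks of 15 to 229 tags. The value of a peak is its height, the pileup of tags at its top. The number of reads in each library is not in the lists, and where a DHT and a vehicle peak overlapped anywhere in the genome the median ratio of their heights, DHT over vehicle, was 1.07. Marker genes were used to check the cell label of the H3K27Ac libraries. Luminal prostate genes had a promoter peak at 12 of 12 markers with DHT and 11 of 12 with vehicle, against 0 of 4 basal markers, 2 of 6 stromal, 1 of 4 leukocyte and 1 of 2 endothelial markers in both lists. Among them the androgen-induced gene KLK3, which encodes prostate-specific antigen, had a tallest peak of 180 tags with DHT and of 97 with vehicle, in different places. The TCF7L2 list had a peak within the same surroundings for 8 of the 12 luminal, 4 of the 4 basal, 4 of the 6 stromal, 4 of the 4 leukocyte and 2 of the 2 endothelial markers, where 66.8% of all genes had one. Peaks near these markers do not show which cells the library came from, and the cell label of the TCF7L2 library, taken here as LNCaP from its sample record, was not tested.

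Around the 10 genes stood 87 peaks with DHT, 78 with vehicle and 66 of TCF7L2. The tallest H3K27Ac peak was higher in tags with DHT than with vehicle for 8 of the genes and lower for ERBB2 and PDGFRA. It was at least 1.5-fold higher with DHT for 3 of 10 genes, IGF1R, FGFR1 and FGFR2, where 8.68% of the 18028 genes with a peak in both lists were. It was at least 1.5-fold lower for 0 of 10, where 1.95% of all genes were. The median ratio was 1.13 for the 10 genes and 1.09 for all genes. In all that follows a ratio is the height with DHT over the height with vehicle, and the range after it is an exact 95% interval for the counting of tags alone, which says nothing of how cultures vary.

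**Figure D1:**
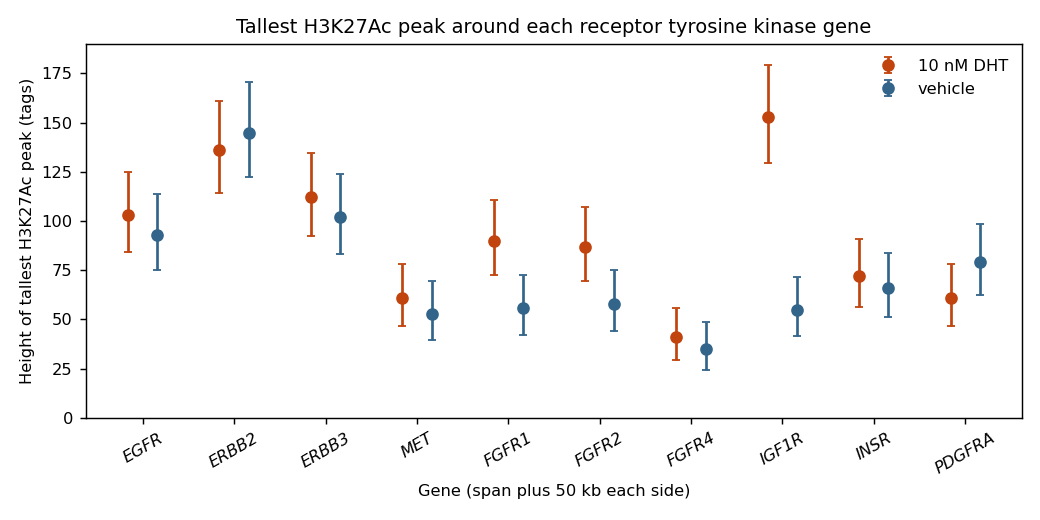
Tags at the highest H3K27Ac peak within 50 kb of each gene, with 10 nM DHT (orange) and with vehicle (blue), 1 library each. Bars are exact 95% Poisson intervals for counting error, and IGF1R, at 153 and 55 tags, is the gene whose bars lie farthest apart.

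IGF1R encodes the receptor for insulin-like growth factor 1, a survival and growth signal. It had the most H3K27Ac peaks of the 10 genes, 24 with DHT and 18 with vehicle, which covered 50.3 kb with DHT and 29.0 kb with vehicle. Its tallest peak, chr15:99330360-99334259 in intron 2, 141 kb from the start of the canonical transcript, reached 153 tags with DHT and 55 with vehicle, a ratio of 2.78 (2.03 to 3.86). That ratio ranked 180 among the 18028 genes. The summed height of all its peaks was 915 tags with DHT and 422 with vehicle, a ratio of 2.17, while the median of that ratio over all genes was 1.12. Here and below, a sum holds called peaks only, so its ratio mixes differences in height with peaks called in 1 list alone. For IGF1R, 8 of 24 DHT peaks overlapped no vehicle peak, where 17.1% of all DHT peaks overlapped none.

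Around the tallest peak, 7 acetylated regions stood within 31.8 kb of intron 2, from 130 to 162 kb past the start. Their summed height was 405 tags with DHT and 88 with vehicle. That stretch was bounded after the heights had been seen. Regions without a vehicle peak add nothing to the vehicle sum, though signal too low to be called a peak is not listed. A region here is a set of overlapping DHT and vehicle peaks, or a peak of 1 list that overlapped none of the other. The region at chr15:99345630-99350309 had 101 tags with DHT and 15 with vehicle (ratio 6.73, 3.89 to 12.5), and its ratio ranked 31 among the 49492 regions of the genome found in both lists. The next one along had 56 tags with DHT and 18 with vehicle (ratio 3.11, 1.8 to 5.62). Between the tallest peak and these lay peaks of 30 and 37 tags that only the DHT list held, and the first 2 regions of the stretch, of 16 and 12 tags, were likewise in the DHT list alone. The peak of 37 tags, chr15:99341760-99344009, overlapped the TCF7L2 peak of 60 tags whose center is printed above with 2 TCF7L2 elements and 1 AP-1 element. In the 3 regions of the stretch that both lists held, the height with DHT was the higher, and the other 4 had no vehicle peak.

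Farther along the gene, intron 20 held chr15:99494820-99498419, with 79 tags with DHT and 27 with vehicle (ratio 2.93, 1.87 to 4.71), and intron 18 held a region of 45 and 17 tags (ratio 2.65, 1.49 to 4.93). By contrast, the 3 regions past the end of IGF1R had nearly the same heights in both lists, 32, 36 and 26 tags after DHT against 34, 38 and 21 after vehicle. Neither list had a peak over an IGF1R promoter, taken as 1000 bp upstream to 100 bp downstream of a start, nor anywhere from 50 kb upstream to 77.9 kb into the gene. Of the 16 IGF1R regions in both lists, 9 were at least 1.5-fold higher with DHT, where 14.6% of all shared regions of the genome were, and 0 at least 1.5-fold lower, where 6.7% were. The lowest ratio, 0.739 (0.371 to 1.45), belonged to a region of 17 and 23 tags in intron 8. A further 8 of the 24 IGF1R regions were in the DHT list alone, of 11 to 37 tags, and 0 in the vehicle list alone. Of all regions of the genome, 15.6% and 10.2% were in those lists alone.

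**Figure D2:**
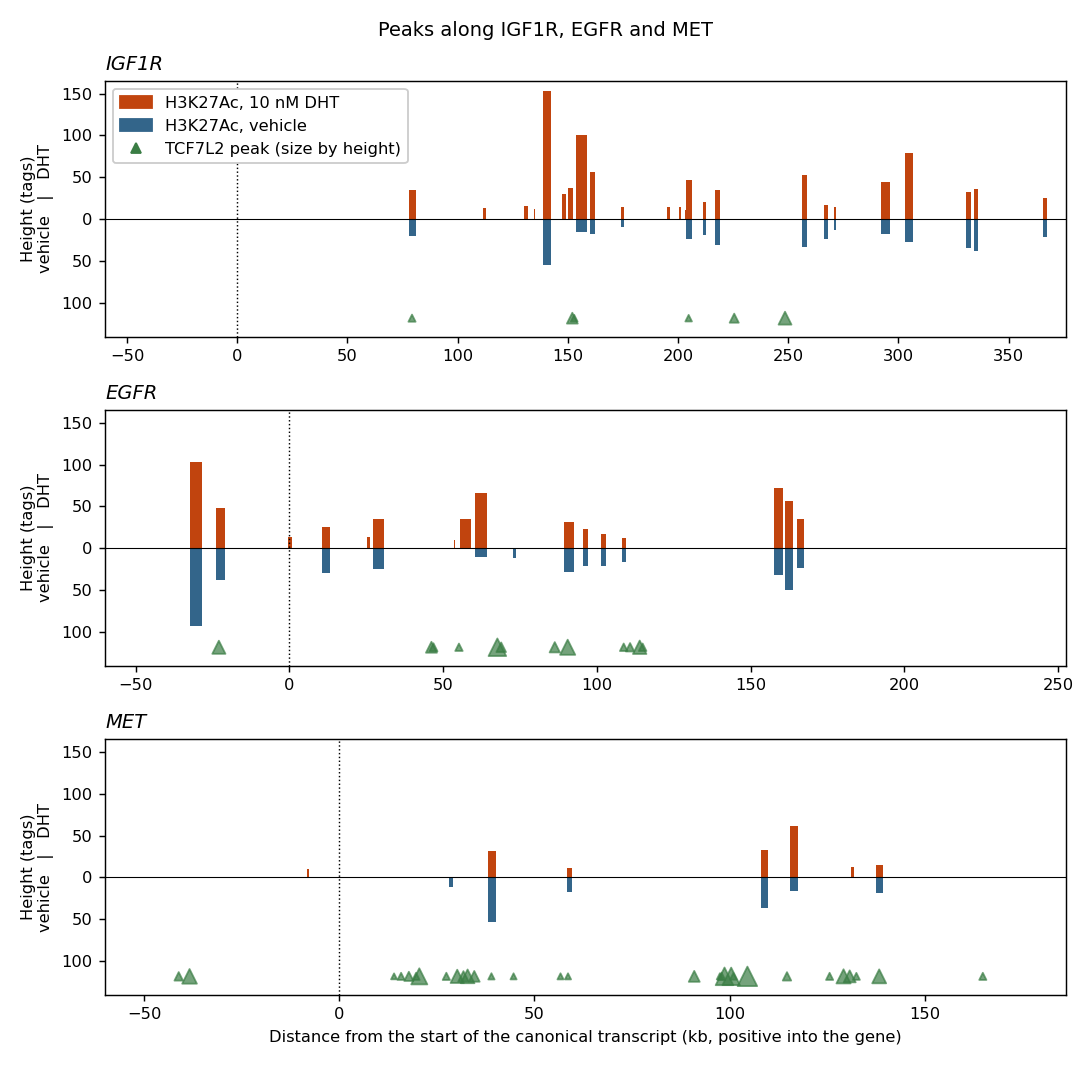
H3K27Ac regions along IGF1R, EGFR and MET by distance in kb from the start of the canonical transcript, with the height in tags above the line for 10 nM DHT (orange) and below it for vehicle (blue), and TCF7L2 peaks as triangles whose area follows their height. In IGF1R the tallest DHT bars, of 153 and 101 tags, stand between 130 and 162 kb, and the next, of 79 tags, at 305 kb. In MET most of the 30 triangles have no bar over them.

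INSR, the receptor for insulin and the nearest relative of IGF1R, had no region at least 1.5-fold higher with DHT. Its tallest peak, in intron 2 at 28.4 kb from the start, had 72 tags with DHT and 66 with vehicle (ratio 1.09, 0.770 to 1.55). In intron 3, chr19:7178340-7180589 had 26 tags with DHT and 41 with vehicle (ratio 0.634, 0.372 to 1.06), and in intron 13 a small region had 12 and 20 tags (ratio 0.60, 0.267 to 1.29). Both intervals included 1, and that of the intron 3 region lay below the genome median of 1.07. The INSR promoter carried a low peak of 14 tags with DHT and 17 with vehicle. Of the 9 INSR regions none was in the DHT list alone, and 2, of 9 and 11 tags, were in the vehicle list alone. Of all regions of the genome, 15.6% and 10.2% were in those lists alone. The summed height was 257 tags with DHT and 275 with vehicle.

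EGFR, the receptor for epidermal growth factor, had its tallest peak in both lists 30.4 kb upstream of its start, at chr7:55054260-55058279, with 103 tags with DHT and 93 with vehicle (ratio 1.11, 0.829 to 1.48). The larger difference lay inside the gene. In intron 1, 62.3 kb from the start, chr7:55147110-55150859 had 66 tags with DHT and 10 with vehicle (ratio 6.60, 3.37 to 14.4), which ranked 36 among the 49492 shared regions. Its neighbor toward the start, chr7:55142340-55145759, had 35 tags with DHT and no peak with vehicle. In intron 19, chr7:55244430-55247219 had 72 tags with DHT and 32 with vehicle (ratio 2.25, 1.46 to 3.53), whereas the next region, over exon 20, had 56 and 50 (ratio 1.12, 0.751 to 1.67).

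Over the canonical EGFR start the DHT list had a peak of 14 tags and the vehicle list had none. An annotated start inside intron 1, 90.9 kb along, lay under a region of 32 tags with DHT and 28 with vehicle, which also held the TCF7L2 peak of 117 tags printed above. The gene had 16 DHT and 13 vehicle peaks with summed heights of 596 and 397 tags (ratio 1.5). Of its 12 shared regions, 9 were higher and 3 lower with DHT, beside 28247 higher and 18457 lower among all 49492. At least 1.5-fold higher were 3 of the 12, where 14.6% of all shared regions were. The differences were thus spread over a few intronic regions while the tallest peak and the internal start differed by less than counting error.

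ERBB2, which has no known ligand of its own and serves as the partner of the other ERBB receptors, carried the broadest and, with vehicle, the tallest region of the set. The region chr17:37854930-37864469, 9.54 kb wide and lying over the start of the canonical transcript and intron 1, had 136 tags with DHT and 145 with vehicle (ratio 0.938, 0.737 to 1.19). A region over another ERBB2 start and the promoter of PGAP3 had 84 tags after DHT against 76 after vehicle, and another over an internal start had 30 and 34. The rest of its surroundings belonged to neighbors, with regions over promoters of STARD3 (91 tags with DHT and 106 with vehicle), GRB7 (71 and 68), an adaptor gene, and MIEN1 (33 and 24). Its 7 shared regions had ratios of 0.858 to 1.38, none past 1.5-fold. The summed height was 484 tags with DHT and 485 with vehicle.

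ERBB3 binds neuregulins, has little kinase activity of its own and signals mainly through ERBB2. Its promoter region, chr12:56471280-56476739, had 109 tags with DHT and 102 with vehicle (ratio 1.07, 0.808 to 1.41), and a region in intron 3 had 82 and 84. The tallest DHT peak of its surroundings, 112 tags, stood instead 37.2 kb past the start over promoters of ESYT1, RPL41 and ZC3H10, where the vehicle list had 98 tags. All 10 shared regions had ratios between 0.976 and 1.33. As for ERBB2, then, the promoter was acetylated in both lists and no region passed 1.5-fold in either direction.

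MET, the receptor for hepatocyte growth factor, had different tallest peaks in the 2 lists, in different introns. In intron 19, chr7:116427630-116429879 had 61 tags with DHT and 16 with vehicle (ratio 3.81, 2.17 to 7.08), ranking 436 of 49492. In intron 2, chr7:116350290-116352359 had 32 tags with DHT and 53 with vehicle (ratio 0.604, 0.377 to 0.954), and a smaller region of the same intron had 11 and 17 (ratio 0.647, 0.274 to 1.46). The tallest heights alone, 61 tags with DHT and 53 with vehicle, show neither. Intron 17 held a region of 33 and 36 tags, and no list had an H3K27Ac peak over a MET promoter.

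Of the fibroblast growth factor receptors, FGFR2 had 87 tags with DHT and 58 with vehicle in intron 2, 9.04 kb from its start, at chr10:123347340-123350489 (ratio 1.5, 1.06 to 2.13), an interval that reached the genome median of 1.07. Its other 3 regions had ratios of 0.818 to 1.05. FGFR1 had its tallest DHT peak 41.7 kb upstream, at chr8:38366580-38369189, with 90 tags with DHT and 52 with vehicle (ratio 1.73, 1.22 to 2.48), and its tallest vehicle peak over the promoter of its neighbor NSD3, with 71 tags with DHT and 56 with vehicle. FGFR4 had 2 regions, both past its end, of 41 and 28 tags after DHT against 35 and 24 after vehicle, the taller over the promoter of NSD1. None of these 3 genes had an H3K27Ac peak over its own promoter, and both FGFR4 regions lay outside the gene.

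PDGFRA, the receptor for platelet-derived growth factor A and a gene of mesenchymal cells, was the gene of the set in which each region was lower with DHT. Its region in intron 16, chr4:55146330-55149209, had 61 tags with DHT and 79 with vehicle (ratio 0.772, 0.544 to 1.09). The 2 regions past its end had 32 and 43 tags with DHT, against 45 and 57 with vehicle. The intervals of all 3 ratios included 1, none passed 1.5-fold, and there was no peak over its promoter.

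Over all 10 genes, the 87 DHT and 78 vehicle peaks formed 92 regions, of which 70 were in both lists, 17 in the DHT list alone and 5 in the vehicle list alone. Of all regions of the genome, 15.6% were in the DHT list alone and 10.2% in the vehicle list alone. Of the 70 shared regions, 47 were higher and 23 lower with DHT, beside 28247 higher and 18457 lower among all 49492. Without IGF1R, 34 were higher and 20 lower. At least 1.5-fold higher with DHT were 15, or 21.4%, where 14.6% of all shared regions of the genome were, and at least 1.5-fold lower were 4, or 5.71%, where 6.7% of all were. IGF1R held 9 of the 15, and without it 6 of 54 regions, or 11.1%, were at least 1.5-fold higher. The median ratio of the 70 was 1.12, beside 1.07 for all shared regions. The counting interval lay wholly above 1.07 for 10 of the 70 and wholly below it for 2. IGF1R held 6 of those 10, and intervals were not counted over all shared regions, so these counts have no share beside them.

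**Figure D3:**
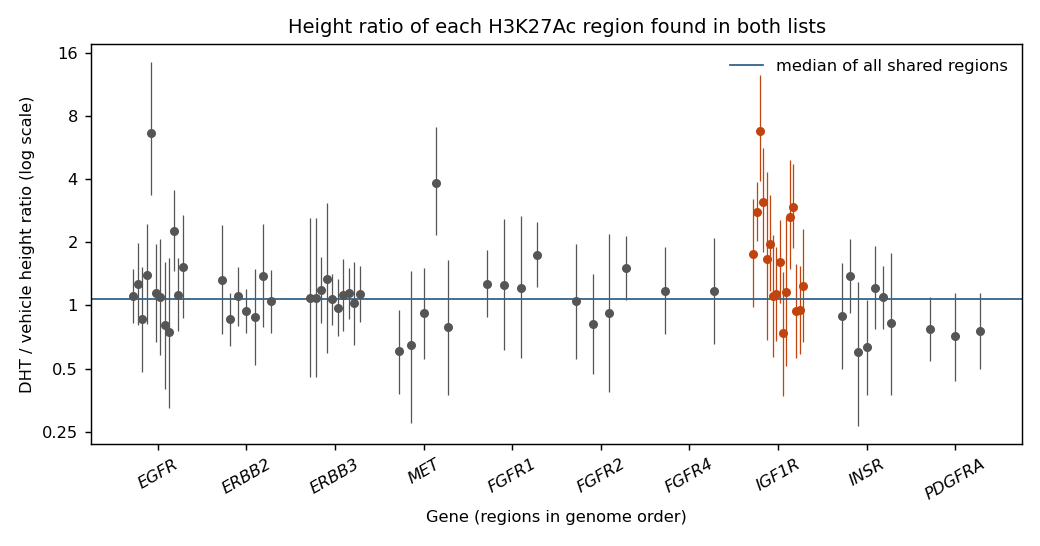
Ratio of heights, DHT over vehicle, on a log scale for each of the 70 regions found in both lists, by gene and in genome order, with exact 95% counting intervals. The line is the median of all shared regions, 1.07, and IGF1R (orange), EGFR and MET hold the highest ratios, 6.73, 6.60 and 3.81.

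The DHT peaks that overlapped no vehicle peak were 17 of 87, or 19.5% (95% Wilson interval 12.6% to 29.1%), where 17.1% of all DHT peaks overlapped none. For IGF1R they were 8 of 24, or 33.3% (18.0% to 53.3%), and without IGF1R 9 of 63, or 14.3% (7.70% to 25.0%). Most were low, with a median of 13 tags, and 3 reached 20 tags, the 2 in IGF1R and the 1 in EGFR given above. The vehicle peaks that overlapped no DHT peak were 5 of 78, or 6.41% (2.77% to 14.1%), where 11.8% of all vehicle peaks overlapped none, and they had 9 to 11 tags, close to the lowest height either list held.

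**Figure D4:**
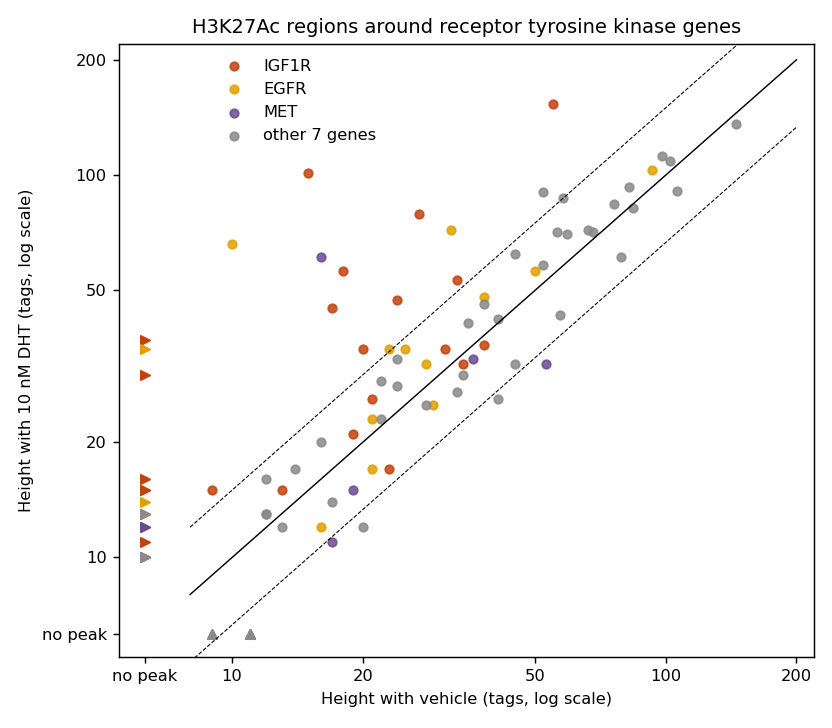
Height of each of the 92 regions around the 10 genes with 10 nM DHT (vertical) and with vehicle (horizontal), in tags on log scales, with peaks of 1 list alone drawn at the position marked no peak. The solid line is equal height and the dashed lines are 1.5-fold, and the points far above the upper one belong mainly to IGF1R, with 1 of EGFR at 66 and 10 tags and 1 of MET at 61 and 16.

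A promoter spans far less sequence than the surroundings of a gene, so peaks over the genes' own promoters are given as genes with at least 1. With DHT, 4 of 10 genes had a peak over a promoter, where 55.6% of 19794 genes did, and with vehicle 4 of 10 did, where 54.4% did. The 4 genes were the same in both lists, ERBB2, ERBB3, EGFR and INSR. Over the canonical start, 4 genes had a DHT peak and 3 had a vehicle peak. The EGFR promoter peak with vehicle lay over its internal start alone, 90.9 kb along. The other 6, MET, FGFR1, FGFR2, FGFR4, IGF1R and PDGFRA, had their H3K27Ac peaks at a distance from their own starts, in introns, upstream or past their ends.

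The androgen response element was searched within the central 1000 bp of the DHT peaks, a count chosen after the heights had been seen. The 15 bp form was found in 1 of 87 peaks, the tallest IGF1R peak, at chr15:99332485-99332499. That share, 1.15%, was near the 1.17% of all DHT peaks. In the whole list the element was found in 3.08% of the DHT peaks that overlapped no vehicle peak, in 2.23% of those at least 1.5-fold higher with DHT, and in 0.528% of the rest. The forkhead element TGTTTAC, on either strand, was found in 33 of 87 peaks, or 37.9%, and in 26.4% of all DHT peaks. Among the peaks at least 1.5-fold higher with DHT the forkhead element was found in 2 of 15, in 25 of 55 other shared peaks and in 6 of 17 that overlapped no vehicle peak. Over the whole list the shares of these classes were 30.3%, 25.3% and 28.5%. An absent match means that these letters were not in the window searched.

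TCF7L2 peaks stood around 8 of the 10 genes, where 66.8% of all genes, and 70.5% of the 13647 genes whose spans fell within the range of these 10, had a peak. FGFR4 and PDGFRA had none, while EGFR had 12 peaks, FGFR1 and IGF1R had 6 each, ERBB2 had 4, FGFR2 and INSR had 3 each and ERBB3 had 2. MET had 30, which ranked 15 among all genes by number and 10 by number per 100 kb, at 13.3 per 100 kb where the median gene had 0.833. The median gene had 1 peak and the highest had 74. MET had 7 H3K27Ac peaks with DHT and 6 with vehicle, and most of its TCF7L2 peaks stood outside them.

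The tallest MET peak, chr7:116416560-116417099 in intron 15, had 194 tags and stood 3.15 kb from the nearest H3K27Ac peak of either list. Peaks of 159 and 156 tags followed in introns 12 and 14, and peaks of 132, 110 and 102 tags in intron 1, upstream and past the end. Those 6 all reached 100 tags, and 0 of the 6 overlapped an H3K27Ac peak. In the whole list 604 of the 2049 peaks of at least 100 tags overlapped one. EGFR had the other 2 peaks of at least 100 tags, one of 158 tags in intron 1 at chr7:55153890-55154819, which was 3.03 kb from the nearest DHT peak, and the one of 117 tags over the internal start, inside acetylated chromatin in both lists. In all, 8 of 66 peaks, or 12.1%, reached 100 tags, beside 9.78% of the whole list.

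For the other genes the 2 tallest TCF7L2 peaks were lower. IGF1R had 85 tags in intron 4 and 60 in intron 2, FGFR1 had 48 and 32 past the end of its canonical transcript but within its annotated span, and FGFR2 had 46 in intron 9 and 42 in intron 4. ERBB2 had 36 in intron 1, within its broad acetylated region, and 33 past its end. INSR had 36 and 18 in intron 2, and another of 17 over its promoter. Both ERBB3 peaks, of 30 and 22 tags, were over promoters of neighbors, ESYT1 and ZC3H10 for the taller and RPS26 for the lower.

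**Figure D5:**
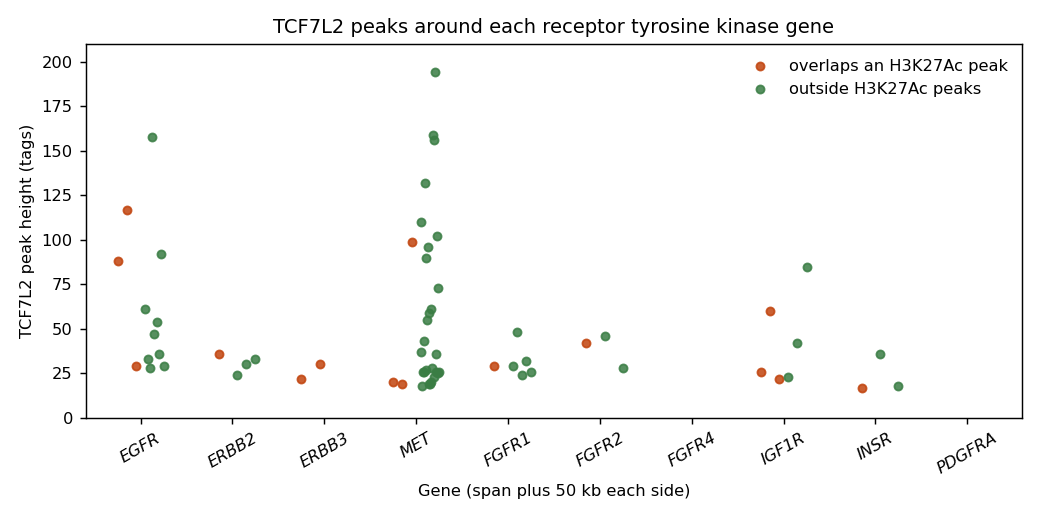
Height in tags of each of the 66 TCF7L2 peaks around the genes, in 1 library, with peaks that overlap an H3K27Ac peak of either list in orange and the others in green. MET has 30 peaks of 18 to 194 tags, of which 3 overlap H3K27Ac, and FGFR4 and PDGFRA have none.

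Of the 66 TCF7L2 peaks, 15, or 22.7% (14.3% to 34.2%), overlapped an H3K27Ac peak of either list, where 34.5% of all TCF7L2 peaks did. MET accounted for the lower share, with 3 of 30, or 10.0% (3.46% to 25.6%), and without MET it was 12 of 36, or 33.3%. Serum and passage differed between the libraries, so these overlaps compare positions in different cultures, and how far growth conditions set them was not tested.

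The TCF7L2 element stood in the central 200 bp of 29 of 66 peaks, or 43.9% (32.6% to 55.9%), where 34.9% of all TCF7L2 peaks had it. In MET it was in 17 of 30, or 56.7% (39.2% to 72.6%), and without MET in 12 of 36, or 33.3%. Windows of the same length 1000 bp to the side of all TCF7L2 peaks had it in 14.8%. A reordered control (TTCNGTN, with A or T at each N) was in 12 of the 66 peaks, or 18.2%, and in 13.2% of all. The tallest MET peak and the EGFR peak of 158 tags had no TCF7L2 element in their centers, whereas the MET peak of 159 tags had 2, one of them ATCAAAG, the reverse complement of CTTTGAT.

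The AP-1 element, counted after the sequences had been seen, was in the center of 30 of 66 peaks, or 45.5%, and of 41.0% of all TCF7L2 peaks, beside 6.22% of the windows 1000 bp away. It was in 11 of the 30 MET peaks, including those of 194, 159, 156 and 132 tags, in 6 of 12 EGFR peaks and in 5 of 6 FGFR1 peaks. It was in 0 of 2 ERBB3 and 0 of 3 FGFR2 peaks, and without MET in 19 of 36, or 52.8%. Of all TCF7L2 peaks of at least 100 tags, 970 of 2049 had it. Either element was in 51 of 66 peaks, or 77.3%, and in 62.8% of all. The forkhead element TGTTTAC was in 1 of the 66, or 1.52%, and in 4.10% of all, beside 2.82% of the windows 1000 bp away.

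Other genes of the pathway are given next by their tallest H3K27Ac peaks, from lists taken by role. Their counts stand beside the 8.68% of all genes with a peak in both lists that were at least 1.5-fold higher with DHT and the 1.95% at least 1.5-fold lower. Of 48 other receptor tyrosine kinase genes, 41 had a peak in both lists, with a median ratio of 1.14, and 6 were at least 1.5-fold higher and 1 lower with DHT. The ephrin receptor gene EPHA1 had 64 tags with DHT and 26 with vehicle, in different places, and EPHA5 had 29 and 47 in the same place. Of 26 ligand genes, 18 had a peak in both lists, 2 were at least 1.5-fold higher and 0 lower. One was IGF1, the ligand of IGF1R, with 135 tags with DHT and 87 with vehicle in the same place (ratio 1.55, 1.18 to 2.06), and the other was FGF7, a ligand of one form of FGFR2, with 40 and 16 in different places.

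Of 19 adaptor genes, 2 were at least 1.5-fold higher with DHT, a share near the 8.68% of all genes, and 0 lower, with a median ratio of 1.01. They were IRS2, a docking protein of IGF1R and INSR, with 38 tags with DHT and 15 with vehicle in different places, and GAB2, with 74 and 44 in the same place. Of 17 feedback regulators with a peak in both lists, 5 were at least 1.5-fold higher and 0 lower, where 8.68% and 1.95% of all genes were. Among them were CBL, which tags activated receptors with ubiquitin, with 109 tags with DHT and 56 with vehicle, and SPRY1, an inhibitor of the pathway, with 46 and 26, both in different places. Of 20 RAS-MAPK and PI3K effector genes, 0 were at least 1.5-fold lower and 1 was higher, MTOR, with 111 tags with DHT and 51 with vehicle, in different places.

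At the lower end of these lists stood ERBB4, the remaining ERBB receptor gene, with 73 tags with DHT and 82 with vehicle in different places. NRG3, a neuregulin gene, had 83 tags after DHT against 118 after vehicle in the same place (ratio 0.703, 0.525 to 0.939), a counting interval that excluded 1. GRB10, an adaptor of IGF1R and INSR, had 140 tags after DHT against 155 after vehicle over its own promoter (ratio 0.903, 0.714 to 1.14).

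By tallest height in the 3 libraries, the nearest match of a gene among the other receptor tyrosine kinases was found by distance on the log2(height + 1) scale, with 3 values per gene. FGFR4 was nearest to FGFR3, which had 40 tags with DHT, 34 with vehicle and no TCF7L2 peak. EGFR was nearest to TIE1, MET to ALK, FGFR1 and FGFR2 both to STYK1, ERBB2 and ERBB3 both to EPHB3, and PDGFRA to ERBB4. IGF1R lay farthest from its nearest match, TEK, at a distance of 0.79, with 153 tags with DHT, 55 with vehicle and 85 of TCF7L2, where TEK had 113, 78 and 63.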

How the data were processed

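The data were 3 ChIP-seq peak lists of LNCaP, H3K27Ac with DHT, H3K27Ac with vehicle and TCF7L2, 1 library each. Reads were mapped to hg19, by the paper's methods with ELAND for TCF7L2 and Bowtie 2 for H3K27Ac, while the submitters' processing notes name CASAVA 1.8.2, Bowtie2 and BWA. Peaks were called with Sole-search, library by library. The value deposited by the authors is a signal, each peak's height in whole tags. Scaling to depth is not stated in the sources used here, and depth is not in the lists.

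Genes, starts and introns came from GENCODE release 44 mapped to GRCh37, and sequences from GRCh37. Overlap was at least 1 bp. Ratios have exact intervals from the binomial share of DHT tags, heights exact Poisson and shares Wilson intervals, all 95% and for counting error only. The fold used was 1.5. For each gene up to 3 regions past that fold, or of at least 20 tags in 1 list alone, and the 2 tallest TCF7L2 peaks were named by rule, and of the pathway lists the genes with the largest and smallest ratios. Some genes this rule names are not reported here. Other regions named were chosen after their values were seen. The members and lists were chosen with earlier results of these data known, and the androgen response, forkhead and AP-1 element counts and the results without IGF1R or MET were added after the data had been seen. PECAM1 was not matched in the annotation. Code for overlaps and for joined regions and their ratios was tested on simulated data. The TCF7L2 element was tried there with a separately written pattern, and the other elements and the intervals were not tried. Alternatives covered the surroundings, the number of peaks, scaling, summed heights, overlap and motif. Tools were scipy 1.17.1, numpy 2.4.6, matplotlib 3.10.9, pyfaidx 0.9.0.4 and pandas 2.3.3 under Python 3.11.15.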

Additional observations from a re-analysis of the deposited data

How the results depend on the processing

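Of 43 alternatives over the 6 summary values, 40 moved the value by less than its counting error or 1.5 times. None turned the sign of the median log2 ratio, which was 0.175 for the 10 genes and 0.130 for all genes in the main setting. It fell to 0.0755 with DHT heights divided by 1.07. Over the promoters of the 4 genes with a peak there it was 0.00166, so near 0 that its sign says little. Against the whole list, however, leaving out 1 gene turned the comparison for 2 shares. DHT peaks that overlapped no vehicle peak were 14.3% without IGF1R and 19.5% with it, where 17.1% of all did, and the TCF7L2 element was in 33.3% of peaks without MET and 43.9% with it, where 34.9% of all had it. With the tallest 25000 H3K27Ac peaks of each list and the tallest 15000 TCF7L2 peaks, 13.0% of the genes' TCF7L2 peaks overlapped H3K27Ac, and 23.8% of all did. The TCF7L2 element was in 25.8% of the genes' peaks in the central 100 bp, where 24.1% of all had it, and the form CTTTGAT alone was in 13.6%, where 13.2% of all had it. Genes with a tallest peak at least 1.5-fold higher with DHT numbered 2 rather than 3 when DHT heights were divided by 1.07 (FGFR2 was lost and FGFR1 stood at 1.5), when surroundings were cut to 10 kb or to the gene itself (FGFR1 was lost), or without IGF1R. By summed heights 2 genes were past 1.5-fold, IGF1R at 2.17 and EGFR at 1.5, while FGFR1 had 1.44 and FGFR2 1.18. By that ratio IGF1R ranked 538 and EGFR 2036 among the 18028 genes with a peak in both lists. With 10 kb or the gene itself FGFR4 had no H3K27Ac peak, and with 100 kb each side 10 of 10 genes had a TCF7L2 peak. The share of all genes with a TCF7L2 peak was taken at 50 kb alone, so the 10 of 10 has no share beside it. No paired analysis was possible because each condition had 1 library. With 1 library per condition the lists cannot separate an effect of DHT from a difference between cultures, and peaks near the lowest heights of 9 and 10 tags may miss a list by counting error alone.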
